A study of Homo sapiens with 18 samples.

Results

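The comparison set 3 libraries of KBM7 cells given dCeMM-2 against 3 libraries of the same cells given dCeMM-4, each compound at 10 times its own EC50 for 5 h. The 6 libraries were taken by the compound named in the labels out of 18 in the series, and 3 libraries given the solvent DMSO for 5 h are set beside them. KBM7 is an established human chronic myelogenous leukaemia line, and nothing in the labels distinguishes the genotype of the groups. The series also held other compounds, which enter here only through the fit over all 18 libraries. They share in the choice of genes tested, the scaling of libraries and the estimate of the spread between libraries. The match is of the multiple of EC50 and not of the concentration, and the labels give neither the 2 concentrations nor how EC50 was measured. Nor do they say whether replicate libraries were grown as separate cultures, so a p-value measures the spread between these libraries only.

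Both compounds are known as molecular glue degraders of cyclin K, small molecules that bring the kinase CDK12 together with the adaptor DDB1 of the CUL4 ubiquitin ligase so that the cyclin bound to CDK12 is ubiquitinated and destroyed. Cyclin K is the partner of CDK12 and CDK13, kinases that phosphorylate the tail of RNA polymerase II during elongation. Loss of their activity is known to lower transcripts of long genes and of DNA repair genes, and to induce short-lived stress transcripts.

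Gene counts per library ranged between 8404212 and 14823881 with dCeMM-2, between 16589288 and 17943571 with dCeMM-4 and between 4598576 and 16966951 with DMSO. Markers of myeloid blood cells, the lineage of the line, summed to 984 to 1050 CPM with dCeMM-2, 888 to 919 CPM with dCeMM-4 and 1011 to 1080 CPM with DMSO, with 8 of 10 at a mean of 1 CPM or more in each group. Lymphoid markers summed to 168 to 183 CPM with dCeMM-2, 93.5 to 96.1 CPM with dCeMM-4 and 98.6 to 111 CPM with DMSO. Epithelial markers summed to 116 to 132 CPM with dCeMM-2, 81.5 to 83.4 CPM with dCeMM-4 and 62.5 to 69.2 CPM with DMSO. Erythroid and megakaryocyte markers stayed at or under 5.74 CPM in sum, and 7 of 10 had no count in any dCeMM-2 library. Fibroblast and endothelial markers summed to 36.7 to 40.03 CPM with dCeMM-2, 18.8 to 22.2 CPM with dCeMM-4 and 40.2 to 41.9 CPM with DMSO. Most of this sum came from PECAM1, at means of 35.0, 17.6 and 39.6 CPM in that order of groups. Most of the lymphoid sum came from CD3D (135, 68.9 and 65.0 CPM) and most of the epithelial sum from KRT18 (72.1, 60.2 and 50.1 CPM). The part of these other markers in the results was not tested.

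The 2 compounds left different RNA populations, and the cells given dCeMM-2 gave fewer gene reads per spike-in read. Synthetic ERCC and SIRV RNAs made up 0.523%, 0.429% and 0.585% of gene and spike-in reads in the dCeMM-2 libraries, against 0.290%, 0.195% and 0.217% in the dCeMM-4 libraries and 0.179% ± 0.0200 (SD, n = 3) with DMSO. The dCeMM-2 libraries all lay above the dCeMM-4 libraries, 2.19-fold on average, with an exact two-sided permutation p of 0.1, the smallest that 3 libraries against 3 can give. ERCC reads alone and SIRV reads alone each gave the same ratio of 2.19. The labels do not state whether spike-in RNA was dosed by cell number or by RNA mass, and in these bulk samples fewer cells and less RNA per cell cannot be told apart.

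Of 15055 genes tested, 11639 (77.3%) differed between the compounds on the TMM scale, which sets the bulk of genes near a log2 fold change of 0, at an adjusted p under 0.05 in edgeR's quasi-likelihood test. Of these, 5782 genes (38.4% of those tested) were higher with dCeMM-2 and 5857 (38.9%) were lower. At least 2-fold differences were found for 2726 genes (18.1%) higher and 3036 (20.2%) lower. The quartiles of the TMM log2 fold change over all genes were -0.82 and 0.82. All 3 dCeMM-2 libraries lay above all 3 dCeMM-4 libraries for 5829 genes (38.7%) and below them for 5983 (39.7%).

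With library sizes set to the summed spike-in counts, the spike-in scale, 10460 genes (69.5%) differed, of which 396 genes (2.63%) were higher with dCeMM-2 and 10064 (66.8%) were lower. The count of genes higher on this scale was 263 without dCeMM-2 replicate 2 and 234 without dCeMM-4 replicate 1. All genes together had a median of 0.057 in log2 fold change on the TMM scale and of -1.15 on the spike-in scale, a shift of -1.21, so a gene had to stand well above the bulk to be higher on both. Those 396 genes were higher on both scales, 5857 were lower on both, and 1748 were higher on the TMM scale but lower on the spike-in scale. Upper-quartile factors moved the median by 0.35 the other way and gave 7526 genes higher (50%) and 4454 lower (29.6%). Calls and medians of lists with upper-quartile factors, given below, are to be read beside those shares and that move of all genes. Among protein-coding genes, 36.2% were higher and 45.1% lower on the TMM scale. A count near these shares, or near those of all genes, does not set a list apart. Lists of protein-coding genes that are set against all genes below are to be read beside these protein-coding shares too. Set against DMSO on the spike-in scale, dCeMM-2 had 223 genes higher (1.48%) and 12490 lower (83%), and dCeMM-4 had 948 higher (6.3%) and 7232 lower (48%). Both of those counts rest on the same 3 DMSO libraries.

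**Figure D1:**
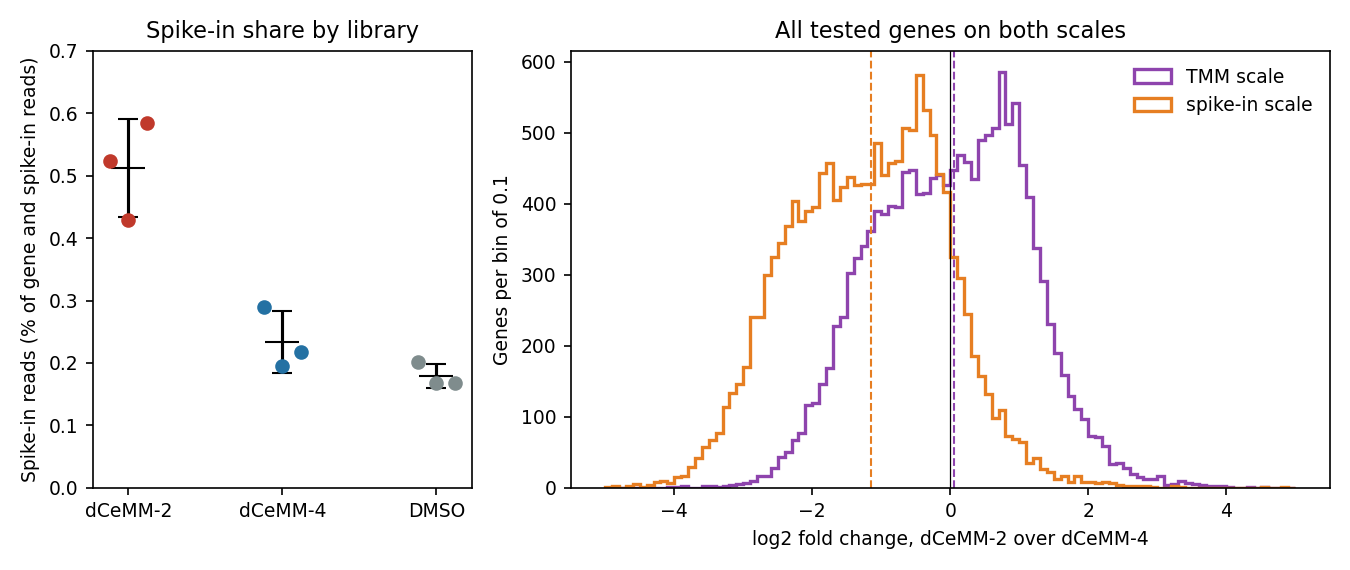
Left, spike-in reads as a percentage of gene and spike-in reads in each library (points) with the mean and SD (n = 3) for dCeMM-2, dCeMM-4 and DMSO. Right, the number of genes per bin of 0.1 in log2 fold change of dCeMM-2 over dCeMM-4 for 15055 genes, values beyond 5 drawn at 5, with dashed lines at the medians of 0.057 (TMM) and -1.15 (spike-in). The dCeMM-2 libraries sit at 0.429% to 0.585%, above the dCeMM-4 libraries at 0.195% to 0.290%.

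In the text that follows, levels are TMM-scaled CPM, the counts scaled to a common library size, values with ± are means and SD of 3 libraries, and each fold change is dCeMM-2 over dCeMM-4. Fold changes over DMSO are named as such. Statements that a group lay above, at or under DMSO are on the TMM scale. On the spike-in scale 83% of genes were lower with dCeMM-2 than with DMSO, and 48% with dCeMM-4. The order against DMSO can therefore differ there. Positions are from GENCODE 29 on GRCh38. The counting's strand setting is not given in the sources used here, so an antisense transcript and its overlapping partner may share reads. The 12 greatest rises and 12 greatest falls were picked among genes whose libraries did not overlap between the compounds. For those genes the lack of overlap between the compounds is set by that choice.

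Several immediate early genes, the p53 target CDKN1A and the stress sensor GADD45B were higher with dCeMM-2. FOS (chromosome 14, 75278774 to 75282230, plus strand), a subunit of the AP-1 transcription factor, had 81.7, 71.8 and 72.2 CPM in the dCeMM-2 libraries, against 6.95, 7.29 and 6.76 CPM in the dCeMM-4 libraries and 10.9, 14.4 and 13.8 CPM in the DMSO libraries. The dCeMM-4 libraries lay under those with DMSO. Its TMM log2 fold change was 3.43 (SE 0.10, adjusted p = 4.35e-26) and its spike-in log2 fold change 2.21 (adjusted p = 4.23e-20). The promoter windows of FOS and of SGK1, a kinase gene induced by growth factors and stress hormones, are shown as examples of transcripts higher with dCeMM-2 on both scales. That of CPTP, a ceramide-1-phosphate transfer protein gene among the transcripts with the greatest deficit, stands beside them. Other transcripts, such as NOTCH3 and P2RX7, were also higher on both scales. Windows existed for 10 of the 12 greatest rises and 9 of the 12 greatest falls. The 3 shown were picked from the named genes and do not describe the rises or falls as sets. The windows come from RefSeq on GRCh38.p14 and run from 250 bases before to 50 after the gene's start, at chr14:75278578-75278877 on the plus strand for FOS, chr6:134318063-134318362 on the minus strand for SGK1 (the first of its 3 windows) and chr1:1324552-1324851 on the plus strand for CPTP. Capitals mark TATAAA, the TATA box letters, on either strand.
FOS: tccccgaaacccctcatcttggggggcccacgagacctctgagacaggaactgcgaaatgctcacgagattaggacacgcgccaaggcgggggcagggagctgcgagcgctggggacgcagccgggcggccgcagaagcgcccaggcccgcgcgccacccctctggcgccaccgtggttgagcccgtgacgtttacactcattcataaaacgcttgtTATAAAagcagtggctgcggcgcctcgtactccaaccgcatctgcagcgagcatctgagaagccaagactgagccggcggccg
SGK1: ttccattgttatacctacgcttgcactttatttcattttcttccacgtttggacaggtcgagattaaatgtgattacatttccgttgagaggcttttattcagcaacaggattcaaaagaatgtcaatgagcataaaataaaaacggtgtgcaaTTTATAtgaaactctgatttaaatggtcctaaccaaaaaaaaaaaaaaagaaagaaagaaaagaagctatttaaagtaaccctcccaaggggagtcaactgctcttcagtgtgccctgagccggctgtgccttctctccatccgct
CPTP: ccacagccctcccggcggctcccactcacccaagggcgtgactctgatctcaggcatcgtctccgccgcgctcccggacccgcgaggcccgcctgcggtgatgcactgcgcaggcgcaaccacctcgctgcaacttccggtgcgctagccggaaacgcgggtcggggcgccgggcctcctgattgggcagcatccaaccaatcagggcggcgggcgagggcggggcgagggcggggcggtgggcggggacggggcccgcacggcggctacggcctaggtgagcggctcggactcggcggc
The FOS window held TATAAA starting at -33 from the gene's RefSeq start, and the SGK1 window held it on the other strand at -96. The CPTP window held no match, and its 300 bases hold 40 CG pairs, against 30 for FOS and 7 for SGK1. Over all 35116 RefSeq windows of the same length, 11.5% hold TATAAA. The other motifs searched on both strands were TGACGTCA (cAMP response element, in 1.85% of all windows), TGANTCA (AP-1 site, 7.71%), CACGTG (E-box, 7.26%) and the serum response element (0.0342%), and none of them was found in the 3 windows. A match here is a description of the letters and not a site of binding.

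ARC, an activity-regulated gene best known from neurons, had 91.7, 78.4 and 72.03 CPM in the dCeMM-2 libraries, against 7.08, 8.45 and 8.71 CPM in the dCeMM-4 libraries and 1.04, 0.678 and 0.383 CPM in the DMSO libraries. Both compounds stood above DMSO and the dCeMM-2 libraries stood far above the rest, with a TMM log2 fold change of 3.32 (SE 0.11, adjusted p = 2.85e-25) and a spike-in log2 fold change of 2.09. ID2 (chromosome 2, 8678845 to 8684453, plus strand), an inhibitor of basic helix-loop-helix transcription factors, had 317, 323 and 287 CPM in the dCeMM-2 libraries, against 47.2, 41.9 and 42.7 CPM in the dCeMM-4 libraries and 24.03, 23.4 and 20.5 CPM in the DMSO libraries. The order dCeMM-2, dCeMM-4, DMSO held without overlap, and the TMM log2 fold change was 2.82 (SE 0.084, adjusted p = 4.35e-26). SGK1 had 50.9, 56.9 and 42.7 CPM in the dCeMM-2 libraries, against 7.26, 9.03 and 7.55 CPM in the dCeMM-4 libraries and 2.71, 2.35 and 2.30 CPM in the DMSO libraries. Again the 3 groups did not overlap, with a TMM log2 fold change of 2.66 (SE 0.11, adjusted p = 5.25e-22) and a spike-in log2 fold change of 1.45.

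IER3, a stress-inducible survival gene, had 15.8, 12.04 and 8.29 CPM in the dCeMM-2 libraries, against 0.124, 0.231 and 1.16 CPM in the dCeMM-4 libraries and 0.116, 0.365 and 0 CPM in the DMSO libraries. Its dCeMM-2 libraries all lay above the others, and the dCeMM-4 libraries differed among themselves. The TMM log2 fold change was 4.60 (SE 0.34, adjusted p = 6.97e-12), and it was 6.04 without dCeMM-4 replicate 3, so its size rests on that library. CDKN1A (chromosome 6, 36676460 to 36687339, plus strand), which encodes the cell cycle inhibitor p21, had 333, 313 and 339 CPM in the dCeMM-2 libraries, against 80.9, 80.96 and 84.4 CPM in the dCeMM-4 libraries and 19.7, 18.3 and 20.1 CPM in the DMSO libraries. It was higher with dCeMM-2 on the TMM scale, at 2.0 (SE 0.067, adjusted p = 8.09e-25) in log2, and on the spike-in scale, at 0.77 (adjusted p = 0.000413). P2RX7, an ATP-gated ion channel, averaged 16.1 ± 1.32 CPM with dCeMM-2, against 2.05 ± 0.160 with dCeMM-4 and 4.76 ± 0.696 with DMSO. NOTCH3, a Notch receptor, averaged 44.6 ± 2.42 CPM with dCeMM-2, against 6.03 ± 1.02 with dCeMM-4 and 12.6 ± 1.28 with DMSO. Their TMM log2 fold changes were 2.98 and 2.88.

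A second set of transcripts was higher with dCeMM-2 than with dCeMM-4 where the DMSO level was nearer to that of dCeMM-2 and dCeMM-4 was the low group. RXFP1, the relaxin receptor, had 59.5, 62.5 and 61.8 CPM in the dCeMM-2 libraries, against 6.70, 7.41 and 8.34 CPM in the dCeMM-4 libraries and 40.2, 32.7 and 39.4 CPM in the DMSO libraries. The dCeMM-4 libraries were the low ones, and the TMM log2 fold change was 3.03 (SE 0.12, adjusted p = 1.83e-22). DAPP1, a phosphoinositide-binding adaptor of immune receptor signalling, had 10.1, 11.7 and 10.8 CPM in the dCeMM-2 libraries, against 1.24, 1.10 and 0.852 CPM in the dCeMM-4 libraries and 7.39, 7.45 and 7.66 CPM in the DMSO libraries. Its dCeMM-4 libraries lay under both other groups, with a TMM log2 fold change of 3.34 (SE 0.17, adjusted p = 6.73e-20). ANTXR2, an anthrax toxin receptor, had 128, 135 and 135 CPM in the dCeMM-2 libraries, against 26.3, 25.2 and 29.5 CPM in the dCeMM-4 libraries and 167, 150.2 and 152 CPM in the DMSO libraries. Here too the dCeMM-4 libraries stood apart at the bottom, and the TMM log2 fold change was 2.29 (SE 0.072, adjusted p = 1.24e-25). TRPC1, a cation channel, averaged 25.3 ± 1.52 CPM with dCeMM-2, against 3.86 ± 0.472 with dCeMM-4 and 14.8 ± 2.72 with DMSO. NIPAL3, a membrane transporter family member, averaged 33.4 ± 2.497 CPM with dCeMM-2, against 5.40 ± 0.489 with dCeMM-4 and 27.8 ± 1.80 with DMSO. Both had dCeMM-4 as the lowest group, at TMM log2 fold changes of 2.70 and 2.62. FADS1, a fatty acid desaturase, also had dCeMM-2 above DMSO and dCeMM-4 below it, but its DMSO mean in CPM lay nearer to that of dCeMM-4. It averaged 240.4 ± 7.29 CPM with dCeMM-2, against 53.4 ± 3.36 with dCeMM-4 and 112 ± 6.81 with DMSO. Its TMM log2 fold change was 2.17 (SE 0.067, adjusted p = 1.13e-25).

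The subunits of the interleukin-18 receptor differed in opposite directions. IL18R1, the ligand-binding subunit (chromosome 2, 102311529 to 102398775, plus strand), had 10.6, 10.8 and 11.1 CPM in the dCeMM-2 libraries, against 1.68, 1.74 and 1.70 CPM in the dCeMM-4 libraries and 13.6, 13.8 and 17.99 CPM in the DMSO libraries. Its accessory subunit IL18RAP (chromosome 2, 102418689 to 102452565, plus strand) had 0.742, 0.646 and 0.510 CPM in the dCeMM-2 libraries, against 5.15, 4.69 and 5.66 CPM in the dCeMM-4 libraries and 4.85, 5.26 and 3.83 CPM in the DMSO libraries. Thus dCeMM-4 was the low group for IL18R1, at a TMM log2 fold change of 2.66 (SE 0.19, adjusted p = 1.52e-15), and dCeMM-2 was the low group for IL18RAP, at -2.97 (SE 0.30, adjusted p = 1.78e-11).

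**Figure D2:**
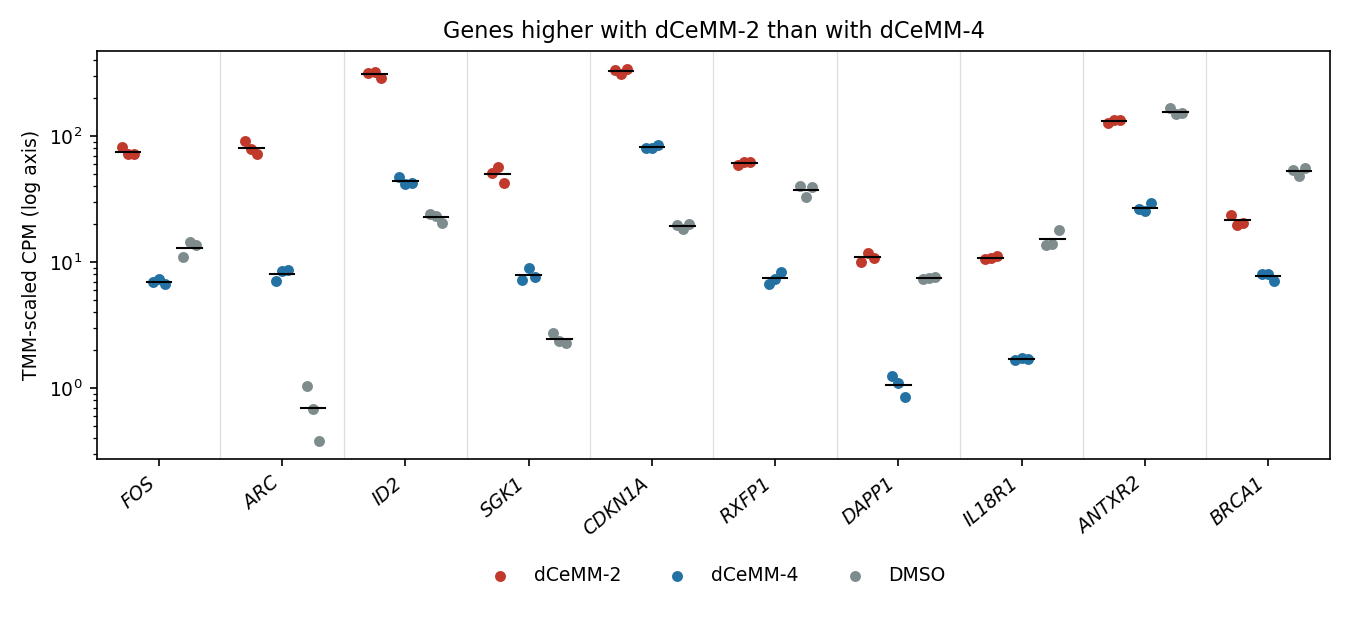
TMM-scaled CPM on a log axis in each library (points) with group means (bars) for 10 genes higher with dCeMM-2, groups in the order dCeMM-2, dCeMM-4, DMSO within each gene. FOS, ARC, ID2, SGK1 and CDKN1A have dCeMM-2 above both other groups, while IL18R1, ANTXR2 and BRCA1 have DMSO above dCeMM-2 and dCeMM-4 lowest.

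The transcripts with the greatest deficit with dCeMM-2 were mostly of low level, with dCeMM-4 libraries much nearer to DMSO. VDR, the vitamin D receptor (chromosome 12, 47841537 to 47943048, minus strand), had 0.519, 0.404 and 0.765 CPM in the dCeMM-2 libraries, against 4.97, 6.19 and 6.51 CPM in the dCeMM-4 libraries and 8.14, 9.75 and 10.5 CPM in the DMSO libraries. The dCeMM-2 libraries all lay under 1 CPM, and the TMM log2 fold change was -3.44 (SE 0.30, adjusted p = 3.07e-13). CPTP (chromosome 1, 1324756 to 1328897, plus strand) had 1.33, 0.404 and 0.637 CPM in the dCeMM-2 libraries, against 9.75, 8.74 and 7.37 CPM in the dCeMM-4 libraries and 11.3, 10.7 and 12.6 CPM in the DMSO libraries. Its TMM log2 fold change was -3.36 (SE 0.25, adjusted p = 7.8e-15), and it was -4.10 without dCeMM-2 replicate 1. TFAP4, a basic helix-loop-helix transcription factor, had 2.22, 2.504 and 2.29 CPM in the dCeMM-2 libraries, against 16.9, 19.8 and 16.99 CPM in the dCeMM-4 libraries and 26.7, 30.7 and 30.2 CPM in the DMSO libraries. Its TMM log2 fold change was -2.93 (SE 0.15, adjusted p = 4.8e-20), and the groups ordered as dCeMM-2 under dCeMM-4 under DMSO.

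Apart from IL18RAP, the other falls among the 12 greatest were FDXACB1, RTN4RL1 (a Nogo receptor relative), EFNA4 (an ephrin ligand), TBC1D10A (a RAB GTPase-activating protein), PLEKHF1 (a lysosomal adaptor), BMP4 (a TGF-beta family ligand), ZNF57 (a zinc finger protein) and USP2 (a deubiquitinase). Their TMM log2 fold changes lay between -3.18 for FDXACB1 and -2.94 for USP2. USP2 averaged 2.46 ± 0.698 CPM with dCeMM-2, against 19.8 ± 0.744 with dCeMM-4 and 20.5 ± 1.95 with DMSO. RTN4RL1 averaged 2.48 ± 0.280 CPM with dCeMM-2, against 21.3 ± 1.80 with dCeMM-4 and 20.8 ± 1.996 with DMSO. PLEKHF1 averaged 0.959 ± 0.390 CPM with dCeMM-2, against 7.28 ± 0.824 with dCeMM-4 and 6.11 ± 0.342 with DMSO. For these genes the dCeMM-4 mean was at about the DMSO mean and the dCeMM-2 mean far under it.

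Among the genes with the lowest adjusted p, the set lower with dCeMM-2 held a polymerase subunit, transcriptional regulators and a ribosome biogenesis factor. POLR1B, a large subunit of RNA polymerase I, had 35.01, 34.7 and 32.6 CPM in the dCeMM-2 libraries, against 187, 184 and 197 CPM in the dCeMM-4 libraries and 196, 189 and 187 CPM in the DMSO libraries. The dCeMM-4 and DMSO libraries intermingled and the dCeMM-2 libraries lay apart, with a TMM log2 fold change of -2.47 (SE 0.072, adjusted p = 4.3e-26). XBP1, the transcription factor of the unfolded protein response, averaged 124 ± 6.76 CPM with dCeMM-2, against 591 ± 24.8 with dCeMM-4 and 975 ± 48.01 with DMSO, and its TMM log2 fold change was -2.26 (SE 0.066, adjusted p = 4.3e-26). RBM12, an RNA-binding protein, averaged 147 ± 8.76 CPM with dCeMM-2, against 643 ± 12.3 with dCeMM-4 and 324 ± 12.9 with DMSO. Its groups spread to both sides of DMSO, at a TMM log2 fold change of -2.13 (SE 0.064, adjusted p = 5.4e-26). WDR3, a ribosome biogenesis factor, averaged 53.3 ± 1.57 CPM with dCeMM-2, against 213 ± 3.42 with dCeMM-4 and 224 ± 7.99 with DMSO. BCORL1, a transcriptional corepressor, averaged 34.6 ± 3.70 CPM with dCeMM-2, against 196 ± 15.7 with dCeMM-4 and 239.9 ± 14.2 with DMSO. The TMM log2 fold changes were -1.996 and -2.51, with dCeMM-4 nearer than dCeMM-2 to DMSO.

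Transcripts of the compounds' own target complex differed unequally. CDK12 (chromosome 17, 39461511 to 39564907, plus strand) had 44.5, 41.8 and 44.1 CPM in the dCeMM-2 libraries, against 182, 185 and 192 CPM in the dCeMM-4 libraries and 174, 180.2 and 182 CPM in the DMSO libraries. The dCeMM-2 libraries stood apart, and dCeMM-4 was at or slightly above DMSO. The TMM log2 fold change was -2.10 (SE 0.073, adjusted p = 1.56e-24) and the spike-in log2 fold change -3.32. CDK13 (chromosome 7, 39949646 to 40099580, plus strand) had 51.8, 48.7 and 46.9 CPM in the dCeMM-2 libraries, against 119.8, 122 and 123 CPM in the dCeMM-4 libraries and 109, 111 and 109.7 CPM in the DMSO libraries, the same ordering with a smaller gap. Its TMM log2 fold change was -1.31 (SE 0.072, adjusted p = 7.12e-19), with a 95% interval of -1.45 to -1.16.

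CCNK itself (chromosome 14, 99481169 to 99535044, plus strand), which encodes cyclin K, had 181, 178 and 181 CPM in the dCeMM-2 libraries, against 216, 208 and 204 CPM in the dCeMM-4 libraries and 123, 118 and 125 CPM in the DMSO libraries. On the TMM scale both compounds stood above DMSO. On the spike-in scale the log2 fold change over DMSO was -1.22 (adjusted p = 1.26e-08) with dCeMM-2 and 0.20 (adjusted p = 0.427) with dCeMM-4. The gap between the compounds was small, with a TMM log2 fold change of -0.21 (SE 0.060, adjusted p = 0.00169) and a 95% interval of -0.34 to -0.092. The direction of that gap depended on the scaling, since upper-quartile factors gave 0.14, the spike-in scale gave -1.43, and a filter at a mean of 5 CPM gave -0.02 (adjusted p = 0.755). DDB1, the ligase adaptor, averaged 328 ± 6.20 CPM with dCeMM-2, against 398 ± 26.5 with dCeMM-4 and 319 ± 13.7 with DMSO, at a TMM log2 fold change of -0.28 (SE 0.063, adjusted p = 0.000147) that was 0.07 (adjusted p = 0.289) with upper-quartile factors. CUL4B, a ligase scaffold, and RBX1, its RING subunit, had TMM log2 fold changes of 0.32 and 0.65 but spike-in log2 fold changes of -0.89 and -0.56. Of the 7 members of this list, 2 were called higher and 4 lower on the TMM scale (4 higher and 2 lower with upper-quartile factors), beside 77.3% of all genes called in either direction.

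The positive elongation factor P-TEFb and its 7SK inhibitor complex stood lower with dCeMM-2. In this list, 0 of 8 tested members (0%) were called higher and 7 (87.5%) lower with dCeMM-2, against 38.4% and 38.9% of all genes, with a median TMM log2 fold change of -0.91 and a median spike-in log2 fold change of -2.12 (calls of 1 higher and 6 lower with upper-quartile factors). MEPCE, the methylase that caps 7SK RNA, had 8.08, 7.03 and 6.37 CPM in the dCeMM-2 libraries, against 52.5, 51.2 and 48.5 CPM in the dCeMM-4 libraries and 64.5, 70.9 and 58.8 CPM in the DMSO libraries. The dCeMM-2 libraries were far under the other groups, at a TMM log2 fold change of -2.80 (SE 0.11, adjusted p = 1.23e-22). CCNT1, the main cyclin of P-TEFb, had 94.2, 94.6 and 89.6 CPM in the dCeMM-2 libraries, against 243, 228 and 234 CPM in the dCeMM-4 libraries and 133, 111 and 114 CPM in the DMSO libraries. The dCeMM-4 libraries lay above DMSO and the dCeMM-2 libraries under it, with a TMM log2 fold change of -1.34 (SE 0.10, adjusted p = 1.71e-12). HEXIM1, an inhibitor of P-TEFb whose transcript is known to rise when P-TEFb is released, had 69.3, 57.1 and 48.4 CPM in the dCeMM-2 libraries, against 105, 115 and 109 CPM in the dCeMM-4 libraries and 26.6, 28.9 and 30.8 CPM in the DMSO libraries. Both compounds were above DMSO without overlap, and dCeMM-2 was under dCeMM-4, at a TMM log2 fold change of -0.90 (SE 0.10, adjusted p = 2.82e-09). CCNT2 showed the same order on the TMM scale, with 76.95 ± 11.2 CPM with dCeMM-2, against 147 ± 3.30 with dCeMM-4 and 43.5 ± 3.18 with DMSO, and a TMM log2 fold change of -0.93 (SE 0.093, adjusted p = 6.2e-11). On the spike-in scale its log2 fold change over DMSO was -0.94 (adjusted p = 1.95e-05) with dCeMM-2 and 1.19 (adjusted p = 1.66e-07) with dCeMM-4.

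Most elongation factors and Mediator subunits were also lower with dCeMM-2. Among elongation factors, 4 of 25 tested members (16%) were called higher and 18 (72%) lower with dCeMM-2, against 38.4% and 38.9% of all genes, with a median TMM log2 fold change of -0.64 and a median spike-in log2 fold change of -1.87 (calls of 8 higher and 16 lower with upper-quartile factors). PAF1, CTR9 and RTF1, subunits of the PAF1 complex, had TMM log2 fold changes of -1.72, -1.30 and -1.26. CTR9 averaged 91.6 ± 3.89 CPM with dCeMM-2, against 226 ± 9.68 with dCeMM-4 and 139 ± 10.5 with DMSO. NELFE, a subunit of the pausing factor NELF, went the other way on the TMM scale, at 1.30 (SE 0.11, adjusted p = 3.56e-13), but its spike-in log2 fold change was 0.10 (adjusted p = 0.711). For Mediator, 4 of 31 tested members (12.9%) were called higher and 23 (74.2%) lower with dCeMM-2, beside the same 38.4% and 38.9%, with a median TMM log2 fold change of -0.64 and a median spike-in log2 fold change of -1.86 (calls of 6 higher and 18 lower with upper-quartile factors). Its subunit MED17 averaged 56.5 ± 5.63 CPM with dCeMM-2, against 199 ± 11.1 with dCeMM-4 and 131 ± 8.20 with DMSO. The Mediator kinase CDK8 averaged 19.1 ± 0.873 CPM with dCeMM-2, against 61.8 ± 5.03 with dCeMM-4 and 38.02 ± 3.10 with DMSO. Both had dCeMM-4 above DMSO and dCeMM-2 under it on the TMM scale. For MED17 the spike-in log2 fold change of dCeMM-4 over DMSO was 0.035 (adjusted p = 0.904).

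For RNA polymerase II and general transcription factors, 11 of 38 tested members (28.9%) were called higher and 23 (60.5%) lower with dCeMM-2, against 38.4% and 38.9% of all genes, with a median TMM log2 fold change of -0.33 and a median spike-in log2 fold change of -1.55 (calls of 15 higher and 17 lower with upper-quartile factors). Upper-quartile factors turned that TMM median to 0.02. Relative to the median of all genes, the list's median was -0.39 with either scaling. POLR2B, the second largest polymerase subunit, averaged 118 ± 7.07 CPM with dCeMM-2, against 303 ± 6.08 with dCeMM-4 and 275 ± 11.5 with DMSO, and its TMM log2 fold change was -1.36 (SE 0.070, adjusted p = 1.19e-19). GTF2E1, a subunit of TFIIE, had 3.04, 3.72 and 2.68 CPM in the dCeMM-2 libraries, against 16.02, 15.7 and 15.5 CPM in the dCeMM-4 libraries and 55.3, 52.4 and 48.2 CPM in the DMSO libraries. Both compounds were under DMSO and dCeMM-2 was lower still, at a TMM log2 fold change of -2.29 (SE 0.14, adjusted p = 7.21e-18). GTF2H3, a subunit of TFIIH, was higher with dCeMM-2 on both scales, with 70.2 ± 8.33 CPM with dCeMM-2, against 21.8 ± 3.12 with dCeMM-4 and 55.9 ± 5.40 with DMSO, a TMM log2 fold change of 1.69 (SE 0.10, adjusted p = 6.16e-18) and a spike-in log2 fold change of 0.51 (adjusted p = 0.0285).

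In the cleavage, polyadenylation and termination list, 5 of 25 tested members (20%) were called higher and 13 (52%) lower with dCeMM-2, against 38.4% and 38.9% of all genes and 36.2% and 45.1% of protein-coding genes. The list had a median TMM log2 fold change of -0.45 and a median spike-in log2 fold change of -1.66 (calls of 11 higher and 11 lower with upper-quartile factors). Upper-quartile factors, with which 50% of all genes were higher and 29.6% lower, brought that TMM median to -0.097. Relative to the median of all genes, the list's median was -0.505 with TMM and -0.504 with upper-quartile factors. CSTF1, a cleavage stimulation factor subunit, PAPOLG, a poly(A) polymerase, and WDR82, an adaptor of termination and histone methylation complexes, had TMM log2 fold changes of -2.41, -2.29 and -1.89. CSTF1 averaged 9.33 ± 1.12 CPM with dCeMM-2, against 50.2 ± 1.496 with dCeMM-4 and 72.9 ± 2.16 with DMSO. The scaffold SYMPK and the cleavage factor CPSF2 were instead higher with dCeMM-2 on the TMM scale, at 1.43 and 1.07, and their spike-in log2 fold changes were 0.21 (adjusted p = 0.384) and -0.14 (adjusted p = 0.565). CPSF2 averaged 71.2 ± 3.95 CPM with dCeMM-2, against 33.96 ± 2.23 with dCeMM-4 and 175 ± 13.8 with DMSO, so both compounds were under DMSO.

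In the list of SR proteins and hnRNP, 8 of 32 tested members (25%) were called higher and 19 (59.4%) lower with dCeMM-2, against 38.4% and 38.9% of all genes, with a median TMM log2 fold change of -0.498 and a median spike-in log2 fold change of -1.71 (calls of 13 higher and 16 lower with upper-quartile factors). SON, a nuclear speckle scaffold, had 394, 424 and 355 CPM in the dCeMM-2 libraries, against 1051, 1096 and 1143 CPM in the dCeMM-4 libraries and 723, 767 and 741 CPM in the DMSO libraries. The dCeMM-4 libraries lay above DMSO and the dCeMM-2 libraries under it, with a TMM log2 fold change of -1.49 (SE 0.064, adjusted p = 5.25e-22). RBM39, a splicing factor, averaged 239 ± 25.2 CPM with dCeMM-2, against 445 ± 27.1 with dCeMM-4 and 313 ± 4.69 with DMSO and had a TMM log2 fold change of -0.89 (SE 0.073, adjusted p = 6.3e-14). SRSF4 and HNRNPF, which bind pre-mRNA, had TMM log2 fold changes of -1.41 and -1.46. In the core spliceosome, 8 of 36 tested members (22.2%) were called higher and 22 (61.1%) lower with dCeMM-2, beside the same 38.4% and 38.9%, with a median TMM log2 fold change of -0.46 and a median spike-in log2 fold change of -1.69 (calls of 13 higher and 18 lower with upper-quartile factors). Its lower members held PRPF4 of the tri-snRNP at a TMM log2 fold change of -2.64 and the helicase DHX8 at -1.74. Among the CLK and SRPK kinases, which phosphorylate SR proteins, 0 of 7 tested members (0%) were called higher and 5 (71.4%) lower with dCeMM-2, beside the same shares of all genes, with a median TMM log2 fold change of -0.84 and a median spike-in log2 fold change of -2.06 (calls of 1 higher and 5 lower with upper-quartile factors). CLK3 averaged 74.6 ± 1.64 CPM with dCeMM-2, against 193 ± 11.6 with dCeMM-4 and 81.1 ± 5.79 with DMSO. CLK4 averaged 7.88 ± 0.246 CPM with dCeMM-2, against 27.6 ± 1.18 with dCeMM-4 and 19.3 ± 0.589 with DMSO. Both were lower with dCeMM-2, and both had dCeMM-4 above DMSO on the TMM scale. For CLK4 the spike-in log2 fold change of dCeMM-4 over DMSO was -0.047 (adjusted p = 0.879).

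**Figure D3:**
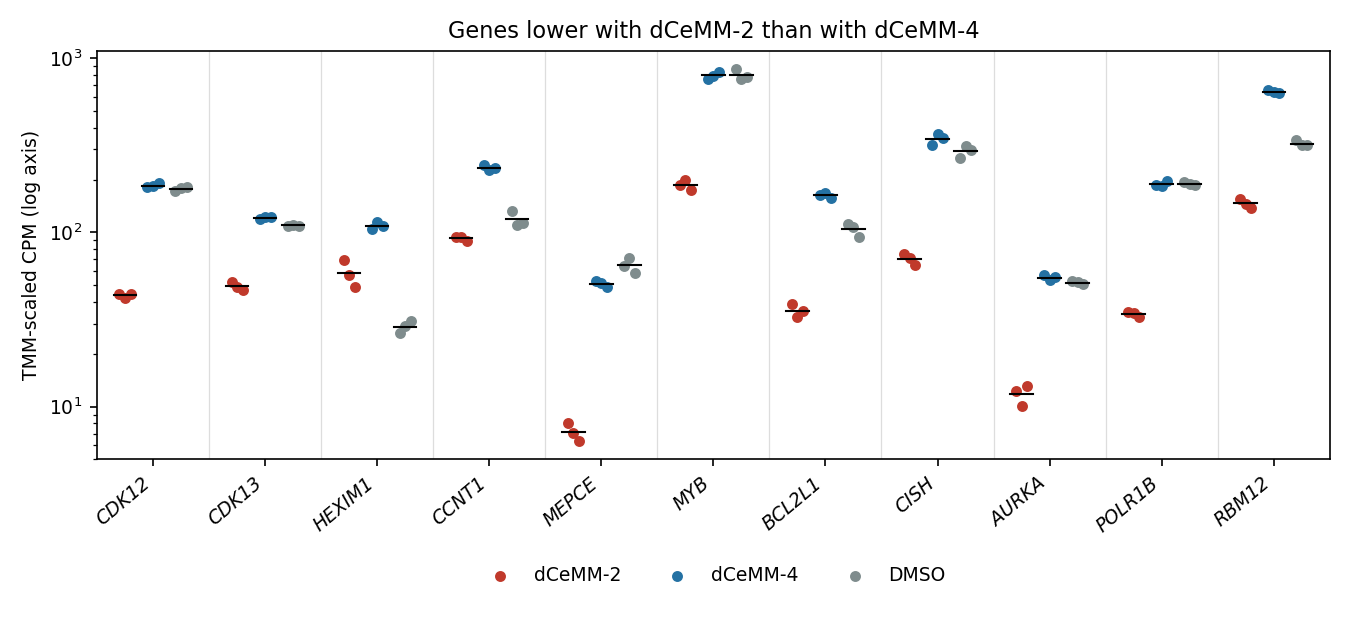
TMM-scaled CPM on a log axis in each library (points) with group means (bars) for 11 genes lower with dCeMM-2, groups in the order dCeMM-2, dCeMM-4, DMSO within each gene. The dCeMM-2 libraries lie under the dCeMM-4 libraries in every gene shown, and for HEXIM1 both compounds lie above DMSO.

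DNA repair genes are the class best known to depend on CDK12. In homologous recombination and DNA damage response, 13 of 30 tested members (43.3%) were called higher and 14 (46.7%) lower with dCeMM-2, with a median TMM log2 fold change of -0.15 and a median spike-in log2 fold change of -1.36. These shares are near the 38.4% and 38.9% of all genes, so the counts set the list apart in neither direction. Upper-quartile factors turned that TMM median to 0.20. BRCA1 (chromosome 17, 43044295 to 43170245, minus strand), a central recombination gene, had 23.8, 19.9 and 20.5 CPM in the dCeMM-2 libraries, against 8.07, 8.10 and 7.06 CPM in the dCeMM-4 libraries and 53.7, 48.2 and 56.1 CPM in the DMSO libraries. Both compounds were under DMSO, and the dCeMM-4 libraries were the lower. The TMM log2 fold change was 1.47 (SE 0.13, adjusted p = 2.38e-13), and on the spike-in scale it was 0.25 (adjusted p = 0.327). ATM, the kinase that signals double-strand breaks, had 244, 278 and 313 CPM in the dCeMM-2 libraries, against 68.5, 65.04 and 72.8 CPM in the dCeMM-4 libraries and 128, 139 and 132 CPM in the DMSO libraries. Its dCeMM-2 libraries were above DMSO and its dCeMM-4 libraries under it, with a TMM log2 fold change of 2.01 (SE 0.12, adjusted p = 1.27e-11) and a spike-in log2 fold change of 0.79 (adjusted p = 0.000255). ATR, the kinase that signals replication stress, had 31.97, 32.7 and 31.4 CPM in the dCeMM-2 libraries, against 51.8, 51.5 and 62.5 CPM in the dCeMM-4 libraries and 95.9, 111 and 105 CPM in the DMSO libraries. Here dCeMM-2 was the lower compound and both were under DMSO, at a TMM log2 fold change of -0.79 (SE 0.092, adjusted p = 7.84e-10).

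PALB2, the partner of BRCA2, averaged 6.53 ± 0.165 CPM with dCeMM-2, against 25.99 ± 2.53 with dCeMM-4 and 30.98 ± 2.01 with DMSO. BLM, a RecQ helicase, averaged 14.8 ± 3.05 CPM with dCeMM-2, against 48.1 ± 2.502 with dCeMM-4 and 66.1 ± 4.85 with DMSO. TOPBP1, an activator of ATR, averaged 71.8 ± 6.33 CPM with dCeMM-2, against 194 ± 9.43 with dCeMM-4 and 253 ± 15.9 with DMSO. All of these 3 genes were lower with dCeMM-2, at TMM log2 fold changes of -1.99, -1.67 and -1.43. XRCC2, a homologous recombination protein, was higher on the TMM scale at 1.58 (SE 0.14, adjusted p = 7.22e-12), and its spike-in log2 fold change was 0.36 (adjusted p = 0.158). In the Fanconi anaemia pathway, 3 of 16 tested members (18.8%) were called higher and 8 (50%) lower with dCeMM-2, beside 36.2% and 45.1% of protein-coding genes (calls of 4 higher and 7 lower with upper-quartile factors). The median TMM log2 fold change was -0.39, which upper-quartile factors brought to -0.038, and the median spike-in log2 fold change was -1.58. A smaller share of the pathway was called in all than the 77.3% of all genes. FANCD2, its ubiquitinated core protein, had 48.6, 39.7 and 31.2 CPM in the dCeMM-2 libraries, against 26.9, 26.2 and 33.2 CPM in the dCeMM-4 libraries and 23.9, 25.6 and 25.1 CPM in the DMSO libraries. The compounds overlapped in this gene, its TMM log2 fold change was 0.49 (SE 0.12, adjusted p = 0.000836) and its spike-in log2 fold change was -0.74. FANCM, a helicase of the pathway, had a TMM log2 fold change of -1.02 (SE 0.13, adjusted p = 4.92e-09).

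Most mitosis genes were lower with dCeMM-2. In that list, 5 of 30 tested members (16.7%) were called higher and 23 (76.7%) lower with dCeMM-2, against 38.4% and 38.9% of all genes, with a median TMM log2 fold change of -1.12 and a median spike-in log2 fold change of -2.33. Set against the same DMSO libraries, the list's median TMM log2 fold change was -1.17 for dCeMM-2 and 0.083 for dCeMM-4. AURKA, a spindle kinase, had 12.2, 10.1 and 13.1 CPM in the dCeMM-2 libraries, against 56.7, 53.2 and 55.2 CPM in the dCeMM-4 libraries and 52.4, 51.8 and 50.3 CPM in the DMSO libraries. The dCeMM-4 libraries were just above DMSO and the dCeMM-2 libraries far below, at a TMM log2 fold change of -2.23 (SE 0.10, adjusted p = 5.7e-22). CENPF, a kinetochore protein, and INCENP, of the chromosomal passenger complex, had TMM log2 fold changes of -1.83 and -1.95. TOP2A, a topoisomerase, was higher with dCeMM-2 on the TMM scale at 0.53 (SE 0.066, adjusted p = 3.55e-09) and lower on the spike-in scale at -0.68. In DNA replication, 14 of 38 tested members (36.8%) were called higher and 20 (52.6%) lower with dCeMM-2, beside 36.2% and 45.1% of protein-coding genes, with a median TMM log2 fold change of -0.35 and a median spike-in log2 fold change of -1.57 (calls of 18 higher and 16 lower with upper-quartile factors). Upper-quartile factors brought that TMM median to -0.0041. MCM10, an origin factor, averaged 12.3 ± 0.698 CPM with dCeMM-2, against 48.5 ± 2.25 with dCeMM-4 and 65.8 ± 0.503 with DMSO. GINS1, a subunit of the replicative helicase, averaged 22.2 ± 2.77 CPM with dCeMM-2, against 9.74 ± 0.529 with dCeMM-4 and 52.7 ± 5.22 with DMSO. MCM10 was lower with dCeMM-2, at a TMM log2 fold change of -1.98. GINS1 was higher on the TMM scale at 1.20, and its spike-in log2 fold change was -0.0099 (adjusted p = 0.973).

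The immediate early genes leaned upward with dCeMM-2 as a list: 20 of 32 tested members (62.5%) were called higher and 7 (21.9%) lower with dCeMM-2, against 38.4% and 38.9% of all genes, with a median TMM log2 fold change of 0.97 and a median spike-in log2 fold change of -0.24. With spike-in scaling, 9 of its 32 tested members were higher and 13 lower, against 2.63% and 66.8% of all genes on that scale. EGR1, an early growth response factor, had 45.4, 40.95 and 35.8 CPM in the dCeMM-2 libraries, against 16.3, 18.1 and 15.7 CPM in the dCeMM-4 libraries and 58.9, 70.3 and 73.1 CPM in the DMSO libraries. Both compounds were under DMSO and dCeMM-4 was lower, with a TMM log2 fold change of 1.30 (SE 0.11, adjusted p = 8.99e-14) and a spike-in log2 fold change of 0.072 (adjusted p = 0.786). ZFP36, an mRNA decay factor that binds AU-rich elements, averaged 55.5 ± 6.39 CPM with dCeMM-2, against 14.8 ± 1.14 with dCeMM-4 and 8.20 ± 1.21 with DMSO, and was higher with dCeMM-2 on the TMM scale at 1.92 (SE 0.10, adjusted p = 1e-19) and on the spike-in scale at 0.69 (adjusted p = 0.00351). In the wider list of ZFP36 and BTG mRNA decay genes, 6 of 16 tested members (37.5%) were called higher and 7 (43.8%) lower with dCeMM-2, near the shares of 38.4% and 38.9% over all genes, with a median TMM log2 fold change of 0.062 and a median spike-in log2 fold change of -1.17 (calls of 9 higher and 6 lower with upper-quartile factors). TOB2, an antiproliferative member, had a TMM log2 fold change of -1.44.

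Among ID genes and inhibitory SMADs, 5 of 8 tested members (62.5%) were called higher and 2 (25%) lower with dCeMM-2, against 38.4% and 38.9% of all genes, with a median TMM log2 fold change of 0.74 and a median spike-in log2 fold change of -0.46 (calls of 6 higher and 1 lower with upper-quartile factors). ID3 averaged 41.6 ± 1.97 CPM with dCeMM-2, against 9.27 ± 1.12 with dCeMM-4 and 6.999 ± 0.0764 with DMSO. ID1 averaged 27.9 ± 1.88 CPM with dCeMM-2, against 9.70 ± 1.22 with dCeMM-4 and 3.31 ± 0.625 with DMSO. ID3 was higher on both scales, at a TMM log2 fold change of 2.16 and a spike-in log2 fold change of 0.94 (adjusted p = 8.44e-05). ID1 had a TMM log2 fold change of 1.53 and a spike-in log2 fold change of 0.32 (adjusted p = 0.221). The feedback regulators of MAP kinase signalling went the other way, since in the DUSP and Sprouty list 2 of 16 tested members (12.5%) were called higher and 10 (62.5%) lower with dCeMM-2, beside the same shares of all genes, with a median TMM log2 fold change of -0.74 and a median spike-in log2 fold change of -1.97. DUSP6, an ERK phosphatase, had 261, 264 and 226 CPM in the dCeMM-2 libraries, against 509, 489 and 487 CPM in the dCeMM-4 libraries and 148, 144 and 146 CPM in the DMSO libraries. Both compounds lay above DMSO and dCeMM-2 lay under dCeMM-4, with a TMM log2 fold change of -0.98 (SE 0.069, adjusted p = 8.67e-16). SPRED1, an inhibitor of RAS signalling, was lower with dCeMM-2 at a TMM log2 fold change of -1.43, and DUSP1, an inducible phosphatase, was higher on the TMM scale at 1.33 (SE 0.13, adjusted p = 1.34e-11), with a spike-in log2 fold change of 0.11 (adjusted p = 0.711).

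Among p53 targets, 13 of 32 tested members (40.6%) were called higher and 12 (37.5%) lower with dCeMM-2, with a median TMM log2 fold change of 0.13 and a median spike-in log2 fold change of -1.10. Those shares are about the 38.4% and 38.9% of all genes. Beside CDKN1A, the stress sensor GADD45B averaged 99.5 ± 2.22 CPM with dCeMM-2, against 22.9 ± 0.991 with dCeMM-4 and 8.22 ± 0.748 with DMSO. The BH3-only gene PMAIP1 averaged 136 ± 7.62 CPM with dCeMM-2, against 39.6 ± 2.87 with dCeMM-4 and 28.4 ± 5.72 with DMSO. The kinase PLK2 averaged 74.6 ± 1.86 CPM with dCeMM-2, against 23.9 ± 1.35 with dCeMM-4 and 3.91 ± 0.755 with DMSO. Their TMM log2 fold changes were 2.12, 1.79 and 1.64. With spike-in scaling, GADD45B and PMAIP1 remained higher, at 0.90 (adjusted p = 8.86e-05) and 0.59 (adjusted p = 0.00949), and PLK2 was at 0.44 (adjusted p = 0.0661). AEN, a p53-induced nuclease, was lower with dCeMM-2 at a TMM log2 fold change of -1.34 (SE 0.090, adjusted p = 2.15e-16). Among CDK inhibitors and D cyclins, 8 of 12 tested members (66.7%) were called higher and 3 (25%) lower with dCeMM-2, beside the same 38.4% and 38.9%, with a median TMM log2 fold change of 0.47 and a median spike-in log2 fold change of -0.76. CCND3, a D cyclin, averaged 43.96 ± 0.793 CPM with dCeMM-2, against 108 ± 2.93 with dCeMM-4 and 128 ± 7.81 with DMSO, at a TMM log2 fold change of -1.29. CDK6, its kinase partner, had a TMM log2 fold change of 0.55 and a spike-in log2 fold change of -0.65.

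On the TMM scale, most blood lineage transcription factors and most members of the BCR-ABL and STAT5 list were lower with dCeMM-2. Among blood lineage transcription factors, 2 of 19 tested members (10.5%) were called higher and 13 (68.4%) lower with dCeMM-2, against 38.4% and 38.9% of all genes, with a median TMM log2 fold change of -0.57 and a median spike-in log2 fold change of -1.81 (calls of 2 higher and 8 lower with upper-quartile factors). MYB (chromosome 6, 135181315 to 135219173, plus strand), a regulator that myeloid leukaemia cells depend on, had 187, 199 and 175 CPM in the dCeMM-2 libraries, against 763, 796 and 840.1 CPM in the dCeMM-4 libraries and 866, 761 and 782 CPM in the DMSO libraries. The dCeMM-4 and DMSO libraries intermingled and the dCeMM-2 libraries lay apart, at a TMM log2 fold change of -2.09 (SE 0.070, adjusted p = 6.94e-25). GFI1, a myeloid repressor, averaged 8.91 ± 0.784 CPM with dCeMM-2, against 55.3 ± 1.86 with dCeMM-4 and 50.6 ± 1.66 with DMSO. TAL1, a stem and erythroid factor, averaged 11.7 ± 1.98 CPM with dCeMM-2, against 40.5 ± 2.88 with dCeMM-4 and 53.3 ± 2.79 with DMSO. Both were lower with dCeMM-2, at TMM log2 fold changes of -2.64 and -1.76.

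Along the axis from BCR-ABL to STAT5, the signalling that drives chronic myelogenous leukaemia, 3 of 13 tested members (23.1%) were called higher and 8 (61.5%) lower with dCeMM-2, against 38.4% and 38.9% of all genes, with a median TMM log2 fold change of -1.12 and a median spike-in log2 fold change of -2.34 (calls of 5 higher and 8 lower with upper-quartile factors). CISH, a STAT5 target that feeds back on cytokine receptors, had 75.6, 71.5 and 65.4 CPM in the dCeMM-2 libraries, against 320.1, 369 and 347 CPM in the dCeMM-4 libraries and 267, 316 and 299 CPM in the DMSO libraries. The dCeMM-2 libraries lay far under the others, with a TMM log2 fold change of -2.28 (SE 0.077, adjusted p = 8.09e-25). SOCS2, another STAT5-induced inhibitor, averaged 121 ± 4.19 CPM with dCeMM-2, against 456 ± 9.61 with dCeMM-4 and 184 ± 7.82 with DMSO. Its TMM log2 fold change was -1.91 (SE 0.069, adjusted p = 4.19e-24). STAT5B was higher with dCeMM-2 on the TMM scale, at 0.88 (SE 0.065, adjusted p = 3.89e-15), and its spike-in log2 fold change was -0.34 (adjusted p = 0.142). In the BCL2 family, 5 of 15 tested members (33.3%) were called higher and 7 (46.7%) lower with dCeMM-2, near the shares of all genes, with a median TMM log2 fold change of -0.33 and a median spike-in log2 fold change of -1.51, and upper-quartile factors turned that TMM median to 0.02. BCL2L1, which encodes the survival protein BCL-XL, had 38.6, 32.6 and 35.6 CPM in the dCeMM-2 libraries, against 165, 168 and 157 CPM in the dCeMM-4 libraries and 112, 108 and 93.8 CPM in the DMSO libraries. Its dCeMM-4 libraries were above DMSO and its dCeMM-2 libraries under it, at a TMM log2 fold change of -2.20 (SE 0.084, adjusted p = 2.63e-23). The pro-death genes BCL2L11 and BAK1 were lower as well, at TMM log2 fold changes of -1.28 and -1.70.

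In the MYC network, 0 of 12 tested members (0%) were called higher and 9 (75%) lower with dCeMM-2, against 38.4% and 38.9% of all genes, with a median TMM log2 fold change of -0.84 and a median spike-in log2 fold change of -2.06 (calls of 2 higher and 8 lower with upper-quartile factors). MYC had 488, 490.1 and 445 CPM in the dCeMM-2 libraries, against 721, 798 and 704 CPM in the dCeMM-4 libraries and 776, 835 and 789.9 CPM in the DMSO libraries. The dCeMM-2 libraries lay under those with dCeMM-4, at a TMM log2 fold change of -0.64 (SE 0.060, adjusted p = 2.05e-12). The antagonists MNT and MGA were lower too, at TMM log2 fold changes of -1.60 and -1.19, and MNT averaged 22.4 ± 0.535 CPM with dCeMM-2, against 68.02 ± 4.04 with dCeMM-4 and 32.6 ± 3.27 with DMSO. Among MYC targets, 3 of 24 tested members (12.5%) were called higher and 19 (79.2%) lower with dCeMM-2, beside the same shares of all genes, with a median TMM log2 fold change of -0.94 and a median spike-in log2 fold change of -2.15 (calls of 6 higher and 17 lower with upper-quartile factors). RRS1, needed to build the large ribosomal subunit, averaged 14.8 ± 1.73 CPM with dCeMM-2, against 92.9 ± 11.6 with dCeMM-4 and 98.5 ± 4.39 with DMSO. GNL3, a nucleolar GTPase, averaged 26.8 ± 1.97 CPM with dCeMM-2, against 130.2 ± 6.62 with dCeMM-4 and 241 ± 12.2 with DMSO. Both were lower, at TMM log2 fold changes of -2.65 and -2.29.

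Abundant housekeeping transcripts took a greater part of the library with dCeMM-2. For cytosolic ribosomal proteins, 71 of 73 tested members (97.3%) were called higher and 0 (0%) lower with dCeMM-2, against 38.4% and 38.9% of all genes, with a median TMM log2 fold change of 0.82 and a median spike-in log2 fold change of -0.40. On the spike-in scale none of the 73 was higher and 33 were lower, against 2.63% and 66.8% of all genes. Their direction thus turned with the scale, while their median stayed above that of all genes on both. RPL13A averaged 1714 ± 78.6 CPM with dCeMM-2, against 856 ± 28.6 with dCeMM-4 and 540.0 ± 19.7 with DMSO, at a TMM log2 fold change of 1.002 (SE 0.058, adjusted p = 2.61e-18) and a spike-in log2 fold change of -0.22 (adjusted p = 0.311). For nuclear-encoded oxidative phosphorylation genes, 29 of 39 tested members (74.4%) were called higher and 3 (7.69%) lower with dCeMM-2, with a median TMM log2 fold change of 0.51 and a median spike-in log2 fold change of -0.70, and NDUFB5, a subunit of complex I, had a TMM log2 fold change of 1.31 and a spike-in log2 fold change of 0.12 (adjusted p = 0.636). For replication-dependent histones, 28 of 40 tested members (70%) were called higher and 0 (0%) lower with dCeMM-2, beside the same shares of all genes, with a median TMM log2 fold change of 0.76 and a median spike-in log2 fold change of -0.46. HIST1H3G was higher with dCeMM-2 on both scales, at TMM and spike-in log2 fold changes of 1.84 and 0.65 (adjusted p = 0.013), and HIST1H4C was at 1.69 and 0.496 (adjusted p = 0.0742) on them. Histone messages mostly lack a poly(A) tail and the libraries were poly-A selected. Histone and ribosomal protein families also have near-identical copies, and reads that aligned to more than 1 place were not counted, so single members are uncertain. Such reads made up 36.1% ± 0.656 of alignable reads with dCeMM-2, 29.5% ± 0.663 with dCeMM-4 and 28.3% ± 1.04 with DMSO (exact two-sided permutation p between the compounds 0.1, n = 3 each), and their part in these lists was not tested.

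Mitochondrially encoded RNA took 9.10%, 6.90% and 5.09% of gene counts in the dCeMM-2 libraries, against 7.30%, 6.51% and 4.58% in the dCeMM-4 libraries and 5.14% ± 0.662 with DMSO. The compounds overlapped, with a difference of 0.903 percentage points and an exact two-sided permutation p of 0.5, and without dCeMM-2 replicate 1 the difference was -0.13. The share fell from replicate 1 to replicate 3 with both compounds, and the permutation did not pair libraries by replicate number. Of the 13 mitochondrially encoded mRNAs, 1 (7.69%) was called higher and 0 (0%) lower on the TMM scale, against 38.4% and 38.9% of all genes. Their median TMM log2 fold change was 0.30 and their median spike-in log2 fold change -0.89. Upper-quartile factors gave calls of 6 higher and 0 lower. The gene called on the TMM scale was MT-ND3, a complex I subunit, with 2266, 1984 and 1509.8 CPM in the dCeMM-2 libraries, against 1655, 1409 and 889 CPM in the dCeMM-4 libraries and 1080.3, 918 and 1135 CPM in the DMSO libraries. The compounds overlapped there too, at a TMM log2 fold change of 0.54 (SE 0.20, adjusted p = 0.0274), and the call was lost without dCeMM-2 replicate 1 (adjusted p = 0.115), without dCeMM-2 replicate 2 (0.0643) or without dCeMM-4 replicate 3 (0.092).

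Most chaperone genes were lower with dCeMM-2. Among heat shock and chaperone genes, 2 of 17 tested members (11.8%) were called higher and 13 (76.5%) lower with dCeMM-2, against 38.4% and 38.9% of all genes, with a median TMM log2 fold change of -0.85 and a median spike-in log2 fold change of -2.08 (calls of 6 higher and 11 lower with upper-quartile factors). HSPH1, CHORDC1 and DNAJA1, all cochaperones or large chaperones, had TMM log2 fold changes of -1.33, -1.90 and -1.39, and HSPH1 averaged 254 ± 16.9 CPM with dCeMM-2, against 639.5 ± 15.5 with dCeMM-4 and 629.5 ± 34.8 with DMSO. In the unfolded protein response, 5 of 20 tested members (25%) were called higher and 12 (60%) lower with dCeMM-2, beside the same 38.4% and 38.9%, with a median TMM log2 fold change of -0.37 and a median spike-in log2 fold change of -1.58 (calls of 8 higher and 7 lower with upper-quartile factors). XBP1 was among the lower, and upper-quartile factors brought the list's TMM median to -0.022. Among ATF4 targets, 10 of 22 tested members (45.5%) were called higher and 8 (36.4%) lower with dCeMM-2, near the shares of all genes, with a median TMM log2 fold change of 0.31 and a median spike-in log2 fold change of -0.90 (calls of 12 higher and 5 lower with upper-quartile factors). SLC7A11, the cystine transporter, had 93.2, 110.3 and 114 CPM in the dCeMM-2 libraries, against 25.6, 22.7 and 22.8 CPM in the dCeMM-4 libraries and 14.2, 11.6 and 12.1 CPM in the DMSO libraries. It was higher with dCeMM-2 on the TMM scale at 2.16 (SE 0.090, adjusted p = 2.49e-22) and on the spike-in scale at 0.96 (adjusted p = 2.14e-05). PSAT1 and SHMT2, enzymes of serine and glycine synthesis, had TMM log2 fold changes of 1.51 and 1.22 and spike-in log2 fold changes of 0.30 (adjusted p = 0.176) and 0.00044 (adjusted p = 0.999). DDIT4, an inhibitor of mTOR signalling, was lower at a TMM log2 fold change of -1.57 (SE 0.085, adjusted p = 4.76e-19).

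Among NRF2 and glutathione genes, 8 of 19 tested members (42.1%) were called higher and 9 (47.4%) lower with dCeMM-2, near the 38.4% and 38.9% of all genes, with a median TMM log2 fold change of -0.036 and a median spike-in log2 fold change of -1.26. Upper-quartile factors turned that TMM median to 0.32. NFE2L2, which encodes NRF2, averaged 25.7 ± 2.81 CPM with dCeMM-2, against 93.3 ± 6.02 with dCeMM-4 and 165 ± 6.98 with DMSO. KEAP1, its ubiquitin ligase adaptor, averaged 12.6 ± 0.159 CPM with dCeMM-2, against 72.3 ± 2.54 with dCeMM-4 and 81.2 ± 3.58 with DMSO. GCLC, the catalytic subunit of glutathione synthesis, averaged 35.5 ± 1.91 CPM with dCeMM-2, against 118 ± 4.43 with dCeMM-4 and 73.9 ± 3.03 with DMSO. All of these were lower with dCeMM-2, at TMM log2 fold changes of -1.85, -2.52 and -1.73. For metallothioneins and zinc genes, 4 of 7 tested members (57.1%) were called higher and 1 (14.3%) lower with dCeMM-2, against 38.4% and 38.9% of all genes, with a median TMM log2 fold change of 0.64 and a median spike-in log2 fold change of -0.56. MT1E averaged 950.4 ± 11.6 CPM with dCeMM-2, against 324 ± 4.73 with dCeMM-4 and 167 ± 13.3 with DMSO, at a TMM log2 fold change of 1.55 and a spike-in log2 fold change of 0.33 (adjusted p = 0.13). MT2A had 1.02 on the TMM scale and -0.21 (adjusted p = 0.352) on the spike-in scale, and MTF1, the factor that switches metallothioneins on, was lower at a TMM log2 fold change of -2.35 (SE 0.12, adjusted p = 2.59e-19). Metallothionein genes are near-identical, so single members are uncertain.

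In cholesterol synthesis, 5 of 21 tested members (23.8%) were called higher and 12 (57.1%) lower with dCeMM-2, against 38.4% and 38.9% of all genes, with a median TMM log2 fold change of -0.55 and a median spike-in log2 fold change of -1.78 (calls of 7 higher and 10 lower with upper-quartile factors). SQLE, squalene epoxidase, averaged 71.4 ± 3.81 CPM with dCeMM-2, against 231 ± 14.8 with dCeMM-4 and 158 ± 6.80 with DMSO. It was lower with dCeMM-2, at a TMM log2 fold change of -1.70 (SE 0.070, adjusted p = 2.1e-22), with dCeMM-4 above DMSO on the TMM scale. On the spike-in scale its log2 fold change of dCeMM-4 over DMSO was -0.027 (adjusted p = 0.925). Glycolysis and hypoxia genes were more often higher on the TMM scale, and 16 of 26 tested members (61.5%) were called higher and 7 (26.9%) lower with dCeMM-2, against 38.4% and 38.9% of all genes, with a median TMM log2 fold change of 0.40 and a median spike-in log2 fold change of -0.83. GAPDH averaged 4350.5 ± 221 CPM with dCeMM-2, against 2340.0 ± 60.9 with dCeMM-4 and 1502 ± 96.4 with DMSO, at TMM and spike-in log2 fold changes of 0.89 and -0.33 (adjusted p = 0.105). The glucose transporter SLC2A1 averaged 16.8 ± 1.25 CPM with dCeMM-2, against 97.8 ± 1.27 with dCeMM-4 and 103 ± 2.85 with DMSO. The hexokinase HK2 averaged 64.8 ± 6.04 CPM with dCeMM-2, against 177 ± 9.65 with dCeMM-4 and 159.9 ± 5.42 with DMSO. These 2 genes were lower with dCeMM-2, at TMM log2 fold changes of -2.55 and -1.44.

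Among NF-kB targets and cytokines, 6 of 15 tested members (40%) were called higher and 7 (46.7%) lower with dCeMM-2, near the 38.4% and 38.9% of all genes, with a median TMM log2 fold change of 0.21 and a median spike-in log2 fold change of -0.96. IL1B, an inflammatory cytokine, had 1.93, 2.83 and 3.57 CPM in the dCeMM-2 libraries, against 9.44, 10.8 and 10.05 CPM in the dCeMM-4 libraries and 47.2, 47.6 and 42.3 CPM in the DMSO libraries. Both compounds were under DMSO and dCeMM-2 was lower, at a TMM log2 fold change of -1.92 (SE 0.17, adjusted p = 9.34e-13). OSM, a cytokine of the interleukin-6 family, and NFKBIE, an inhibitor of NF-kB, were lower too at -2.17 and -2.53 on the TMM scale, and NFKB2, an NF-kB precursor, had TMM and spike-in log2 fold changes of 1.14 and -0.084 (adjusted p = 0.746). In the interferon response, 12 of 20 tested members (60%) were called higher and 6 (30%) lower with dCeMM-2, beside the same shares of all genes, with a median TMM log2 fold change of 0.80 and a median spike-in log2 fold change of -0.42. CXCL10, a chemokine, had 77.9, 78.7 and 78.1 CPM in the dCeMM-2 libraries, against 19.7, 18.5 and 18.2 CPM in the dCeMM-4 libraries and 46.3, 43.7 and 48.6 CPM in the DMSO libraries. It was higher with dCeMM-2 on both scales, at log2 fold changes of 2.06 (SE 0.076, adjusted p = 9.34e-24) on the TMM scale and 0.85 (adjusted p = 0.000175) on the spike-in scale. OAS2, an antiviral enzyme, had TMM and spike-in log2 fold changes of 1.75 and 0.54 (adjusted p = 0.0194). IFIT1 and IFIT3, antiviral RNA-binding proteins of the same list, were lower at TMM log2 fold changes of -1.38 and -1.05.

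The circadian clock list had the lowest median of all lists: 2 of 13 tested members (15.4%) were called higher and 10 (76.9%) lower with dCeMM-2, against 38.4% and 38.9% of all genes, with a median TMM log2 fold change of -1.20 and a median spike-in log2 fold change of -2.42. PER2, a repressor of the clock, averaged 16.1 ± 1.62 CPM with dCeMM-2, against 55.6 ± 3.75 with dCeMM-4 and 25.4 ± 2.06 with DMSO. NR1D1, a nuclear receptor of the clock, averaged 13.6 ± 0.533 CPM with dCeMM-2, against 44.2 ± 2.39 with dCeMM-4 and 27.4 ± 3.04 with DMSO. CRY2, another repressor, averaged 8.26 ± 1.77 CPM with dCeMM-2, against 26.001 ± 1.72 with dCeMM-4 and 26.4 ± 3.57 with DMSO. All of these were lower with dCeMM-2, at TMM log2 fold changes of -1.78, -1.69 and -1.61. Among proteasome subunits, 12 of 31 tested members (38.7%) were called higher and 14 (45.2%) lower with dCeMM-2, near the 36.2% and 45.1% of protein-coding genes, with a median TMM log2 fold change of -0.043 and a median spike-in log2 fold change of -1.24 (calls of 17 higher and 9 lower with upper-quartile factors). PSMD12 had a TMM log2 fold change of -1.48. Upper-quartile factors gave a median of 0.31. FOXO targets had 5 of 14 members higher and 4 lower. Aryl hydrocarbon receptor targets had 2 of 7 higher and 3 lower (4 higher and 1 lower with upper-quartile factors), so neither list had a greater share called than the 77.3% of all genes. Relative to the median of all genes, no list's median moved by more than 0.062 on the log2 scale between TMM, DESeq2 size factors, upper-quartile factors, DESeq2 and spike-in scaling.

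**Figure D4:**
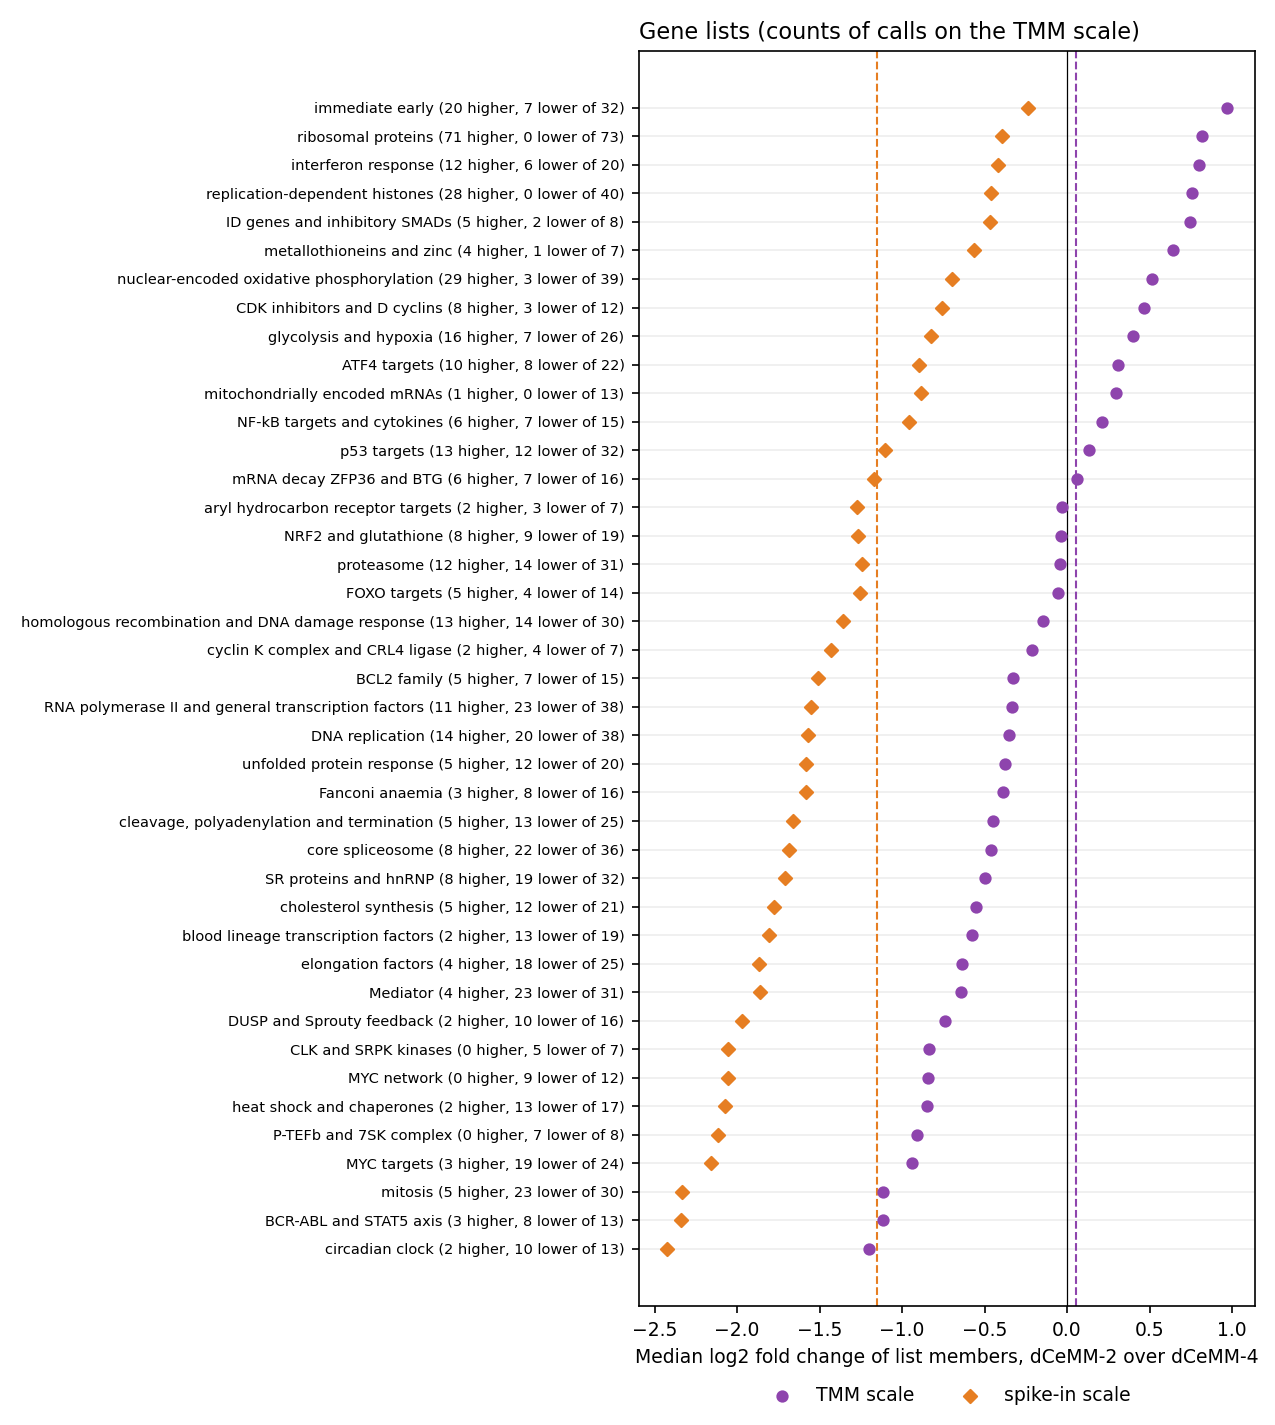
Median log2 fold change of dCeMM-2 over dCeMM-4 for each gene list other than the cell type markers on the TMM scale (circles) and the spike-in scale (diamonds), with counts of members called on the TMM scale beside the names and dashed lines at the medians of all genes, 0.057 and -1.15. Immediate early genes (0.97) and ribosomal proteins (0.82) are at the top of those shown on the TMM scale and the circadian clock (-1.20) at the bottom, and every median shown lies under 0 on the spike-in scale.

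Gene class went with the direction of the difference. Protein-coding genes were called higher in 36.2% and lower in 45.1% of 12332, beside 38.4% and 38.9% of all genes, with a median TMM log2 fold change of -0.13. Antisense transcripts were higher in 60.1% and lower in 5.27% of 569, with a median of 1.08, and long intergenic RNAs were higher in 54.4% and lower in 10.7% of 428, with a median of 0.92. Spike-in scaling put those medians at -0.087 and -0.27. Processed pseudogenes were higher in 46.5% and lower in 6.73% of 847. Sense intronic transcripts, which lie within introns of other genes, were higher in 22% of 127, under the 38.4% of all genes. They were lower in 40.2%, about the 38.9% of all genes. Both compounds had them above DMSO, by medians of 1.28 with dCeMM-2 and 1.47 with dCeMM-4 on the TMM scale. Genes with a ZNF or ZFP symbol, mostly zinc finger repressors, were lower with dCeMM-2 in 115 of 179 on chromosome 19 and in 148 of 227 elsewhere (64.2% and 65.2%), at median TMM log2 fold changes of -0.95 and -0.89.

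The span of a gene had no single relation to the difference. Protein-coding genes under 10 kb had a median TMM log2 fold change of 0.10, those of 20 to 50 kb -0.16, those of 100 to 200 kb -0.31, and those of 500 kb or more 0.35, with 51.0% of 149 called higher in that last class. On the spike-in scale those 4 medians were -1.10, -1.37, -1.52 and -0.84, in the same order. Per library, the median change from DMSO of genes of at least 100 kb minus that of genes under 20 kb was -0.21, -0.084 and -0.14 with dCeMM-2, against -0.13, -0.16 and -0.096 with dCeMM-4. The compounds overlapped, with an exact two-sided permutation p of 0.7. With genes of at least 50 kb against those under 10 kb, the difference between the compounds was -0.22 with no overlap (exact two-sided p = 0.1), and over genes with a mean of at least 5 CPM it was -0.11 (exact two-sided p = 0.1). Single-exon minus multi-exon genes averaged 0.20 ± 0.10 with dCeMM-2 and 0.33 ± 0.068 with dCeMM-4 (SD, n = 3 each, exact two-sided permutation p = 0.2).

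**Figure D5:**
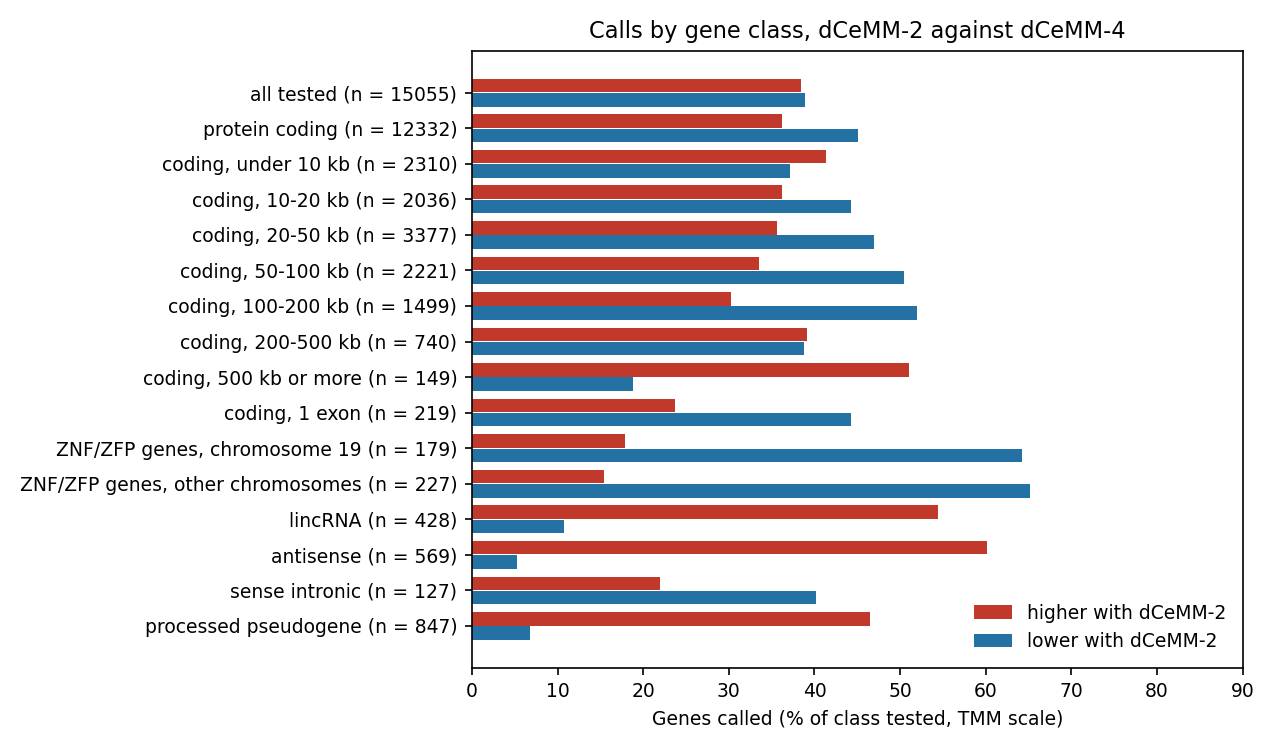
Percentage of each gene class called higher (red) and lower (blue) with dCeMM-2 than with dCeMM-4 on the TMM scale, with the number of genes tested. Antisense transcripts reach 60.1% higher and 5.27% lower, zinc finger genes on chromosome 19 17.9% higher and 64.2% lower, and coding genes of 500 kb or more 51.0% higher and 18.8% lower.

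The compounds did not differ detectably in 3416 genes, and for 1425 of these the 95% interval lay within 1.5-fold in either direction on the TMM scale. Among the genes of the lists, 148 of 916 tested were not called, and 99 of those had such an interval. Among those list genes, the intervals that reached least far from 0 in either direction, picked after their values were seen, belonged to ODC1, FDFT1 and HSP90AB1. ODC1, the first enzyme of polyamine synthesis, averaged 1055 CPM with dCeMM-2, 1064 CPM with dCeMM-4 and 529.9 CPM with DMSO. Its TMM log2 fold change was -0.012, with an interval of -0.13 to 0.10. FDFT1, squalene synthase, had a TMM log2 fold change of 0.013 with an interval of -0.11 to 0.13, and HSP90AB1, a constitutive chaperone, had 0.018 with an interval of -0.099 to 0.13. These intervals hold for levels relative to the bulk of genes, and the spike-in scale places the same genes lower with dCeMM-2.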

How the data were processed

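The authors deposited raw read counts per gene, 1 table per library, made from poly-A enriched RNA. Per the submitters' processing notes, HTSeq 0.11.2, STAR 2.5.2b, Trimmomatic 0.32 and Picard were used on build GRCh38.p7, with no roles given. The tables hold 58051 gene identifiers, of which 57447 matched GENCODE 29, beside 92 ERCC and 7 SIRV rows and 5 HTSeq summary rows. Reads in no annotated feature (10.1% to 13.2% in the 6 libraries compared) and reads in ambiguous features (1.92% to 2.09%) stayed out of library sizes and tests.

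The counts were fitted with edgeR 4.0.16 (R 4.3.3) after filterByExpr by group, which kept 15055 genes, by a robust quasi-likelihood model with TMM factors on all 18 libraries in 6 groups, with 12 residual degrees of freedom and no replicate block. Benjamini-Hochberg adjustment ran over all genes tested, with a threshold of 0.05. SE is the absolute log2 fold change over the square root of F, and intervals are 95%. The same fit was repeated with summed ERCC and SIRV counts as library sizes. Span and exon summaries used log2 CPM with a prior count of 2. The code was tested on simulated counts. Alternatives were DESeq2 1.42.0, other factors and filters, a replicate block, only the 6 libraries, and leaving out each library.

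Named genes were the 12 greatest rises and falls among protein-coding genes with an adjusted p under 0.05, non-overlapping libraries and at least 5 CPM in the higher group, 14 genes of the target complex and known responses, members of each gene list taken from the 3 with the lowest adjusted p in either direction, and the 5 lowest adjusted p in each direction. The comparison and the 46 lists (1012 entries) were chosen with earlier results of these data known. Lists are described by counts and medians, without a test of the list. Promoter windows are from RefSeq, matched by symbol. Some genes of the lists are not reported here by name.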

Additional observations from a re-analysis of the deposited data

Results flagged for a closer look

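Reads that fell in no annotated feature lay outside the comparisons and were more frequent with both compounds than with DMSO. They made up 10.1%, 11.8% and 13.2% of reads placed once in the dCeMM-2 libraries (mean 11.7%), against 11.2%, 11.4% and 12.7% in the dCeMM-4 libraries (mean 11.8%) and 6.62%, 7.42% and 7.43% in the DMSO libraries. Every compound library lay above every DMSO library, and the compounds overlapped each other, with a difference of -0.049 percentage points and an exact two-sided permutation p of 1 (n = 3 each). Where in the genome these reads lie was not analysed here.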

How the results depend on the processing

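On the TMM scale the number of genes called moved little: leaving out 1 library at a time gave 11129 to 11357 called, 5464 to 5656 higher and 5665 to 5723 lower, and DESeq2 kept 11173 of the 11639 calls with none turned round. The spike-in scale gave 396 higher and 10064 lower. With 1 library left out it gave 9655 to 11016 called, 234 to 450 higher and 9205 to 10782 lower. Over all genes, same-numbered libraries of the compounds did not deviate together (correlations -0.071, -0.032 and -0.053). The mitochondrially encoded share, in replicate order, nonetheless fell with both compounds, from 9.10% to 5.09% with dCeMM-2 and from 7.30% to 4.58% with dCeMM-4. With DMSO it rose from 4.62% to 5.89%. The labels do not say whether a replicate number marks a shared batch. A replicate block called 11616 genes and kept 11582 of the calls.

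Of 141 genes followed, those that turned round were CCNK (0.14) and DDB1 (0.073) with upper-quartile factors. On the spike-in scale FANCD2 (-0.74), RBX1 (-0.56), CUL4B (-0.89), CPSF2 (-0.14), GINS1 (-0.0099), TOP2A (-0.68), RPL13A (-0.22), GAPDH (-0.33), MT-ND3 (-0.63), MT2A (-0.21), NFKB2 (-0.084), STAT5B (-0.34) and CDK6 (-0.65) turned round by their log2 fold change, and another 13 lost the call. The alternative's shift of the median of all genes by -1.21 is part of its construction. With DESeq2 and with DESeq2 size factors all 141 kept their direction and call.

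The difference between compounds in long minus short genes was -0.22 at 50 and 10 kb and -0.11 over genes of at least 5 CPM, and -0.050 to 0.013 without single libraries. Single-exon minus multi-exon genes gave -0.34 over genes of at least 5 CPM and -0.18 to -0.0769 without single libraries. The cause was not tested. Without single libraries the spike-in share differed by 0.242 to 0.3197 percentage points and the mitochondrial share by -0.13 to 1.87. Genes under 1 CPM in a group, such as VDR and IER3, rest on few reads, which limits the precision of their fold changes, and 3 libraries a group limit every exact test to a p of 0.1 or more.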
